A study of Mus musculus with 12 samples.

Results

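The major urinary protein (Mup) genes examined here were 10 genes, Mup1, Mup2, Mup3, Mup7, Mup10, Mup11, Mup12, Mup17, Mup20 and Mup21. They were chosen by name and matched to their Ensembl identifiers, and the rule uses no measured value. The count table lists 53715 genes, of which 49 are named Mup, so the 10 genes leave 39 others of the family. RNA was sequenced from 12 libraries of mouse cells (C57BL/6JOlaHsd), 4 for each of 3 groups. Hepatoblasts, the precursors of hepatocytes, were isolated from embryonic livers at E14.5 with magnetic beads against the surface protein Dlk1 and lysed directly. Diff. hepatocytes were such Dlk1+ cells grown for 4 days in culture protocol 1 on fibronectin with Matrigel, in a medium with serum, insulin, transferrin, selenium and dexamethasone, a synthetic glucocorticoid. Mature hepatocytes were perfused from the livers of adult male mice of 8 to 12 weeks and lysed directly. Hepatoblasts came from pooled livers of embryos whose sex is not given. Age, sex of the animals and time in culture therefore changed together with the group, and their effects cannot be told apart. All comparisons are of bulk RNA, in which fewer cells of a type and less RNA per cell cannot be told apart.

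Mup proteins are small lipocalins, barrel-shaped carriers with a pocket for hydrophobic molecules. The adult mouse liver secretes them into blood, the kidney passes them into urine, and there they hold and slowly release volatile pheromones. The family is known for a large central class of nearly identical genes and a few more distant peripheral genes, among them Mup3, Mup20 and Mup21. Mup20 encodes darcin, itself a male sex pheromone. In liver these genes are a classical male-biased set. Pulses of growth hormone act through the receptor Ghr and the transcription factor Stat5b, and glucocorticoid and thyroid hormone are also known to raise Mup expression.

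The 10 genes lie in 1 cluster on chromosome 4 of GRCm38 (chr4:59956804-62150863, 2194060 bases), which holds 48 of the 49 Mup genes, 22 of them protein-coding. All 10 are protein-coding and on the minus strand. In order along the chromosome they are Mup7 (ENSMUSG00000073842, chr4:60066469-60070475), Mup2 (ENSMUSG00000078688, chr4:60135932-60154289), Mup1 (ENSMUSG00000078683, chr4:60498012-60501960), Mup10 (ENSMUSG00000078680, chr4:60578260-60582199), Mup11 (ENSMUSG00000073834, chr4:60658466-60662411), Mup12 (ENSMUSG00000094793, chr4:60737383-60741326), Mup17 (ENSMUSG00000096688, chr4:61591929-61595871), Mup20 (ENSMUSG00000078672, chr4:62050234-62054158), Mup3 (ENSMUSG00000066154, chr4:62083476-62087342) and Mup21 (ENSMUSG00000066153, chr4:62147932-62150863). Mup20, Mup3 and Mup21 are thus neighbours at 1 end of the cluster.

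The sequences show which of these genes a 75-bp read can tell apart. Over the coding sequences of the principal transcripts, the 45 pairs were 82.2% to 99.6% identical. Mup1, Mup2, Mup7, Mup10, Mup11, Mup12 and Mup17 formed a close group of 7 genes, with 98.4% to 99.6% identity in its 21 pairs. Mup20 was 90.1% to 91.4% identical to these 7, and Mup3 and Mup21 were 82.2% to 84.8% identical to them and 94.8% identical to each other. The 75 coding bases below, 1 read long, are from the stretch of the coding alignment in which 27 columns varied between the 10 genes. They are shown because they separate the peripheral genes from each other and from the close group, and capitals mark bases that differ from Mup7.
Mup7, Mup10 and Mup17: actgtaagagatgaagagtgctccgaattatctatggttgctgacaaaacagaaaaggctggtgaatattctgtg
Mup1, Mup2, Mup11 and Mup12: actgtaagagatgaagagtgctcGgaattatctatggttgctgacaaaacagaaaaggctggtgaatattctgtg
Mup20: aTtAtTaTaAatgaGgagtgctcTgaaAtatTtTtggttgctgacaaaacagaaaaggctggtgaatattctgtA
Mup21: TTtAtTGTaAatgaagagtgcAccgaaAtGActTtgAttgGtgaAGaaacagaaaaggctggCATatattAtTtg
Mup3: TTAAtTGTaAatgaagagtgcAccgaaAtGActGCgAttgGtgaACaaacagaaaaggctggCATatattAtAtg
Within the close group this stretch had only 2 forms, which differed at 1 base. Mup20 differed from Mup7 at 11 of the 75 bases, Mup21 at 21 and Mup3 at 23. Among these 10 genes, a read of this stretch separates Mup20, Mup21 and Mup3, but it cannot name a gene of the close group. The stretch was not compared with the other 39 Mup genes.

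The same limit was measured over whole transcripts. Every 75-base window of each gene's transcripts was looked up in the transcripts of all other genes. In Mup3, 5.44% of the windows occurred in another gene, and in Mup21 10.3% did, in both cases in the other of the pair. In Mup20 43.6% of the windows were shared, all of them with the pseudogene Mup-ps19, which had 1 count in 1 mature library and 0 counts in the other 11. The close group shared far more, from 57.8% in Mup1 through 68.7% in Mup17, 73.7% in Mup11, 74.3% in Mup10, 77.8% in Mup2 and 80.3% in Mup12 to 81.1% in Mup7. How the counting treated reads that match several genes is not stated in the sources used here. Values of single genes of the close group are therefore uncertain, while those of Mup3, Mup21 and Mup20 rest mostly on sequence of their own.

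**Figure D1:**
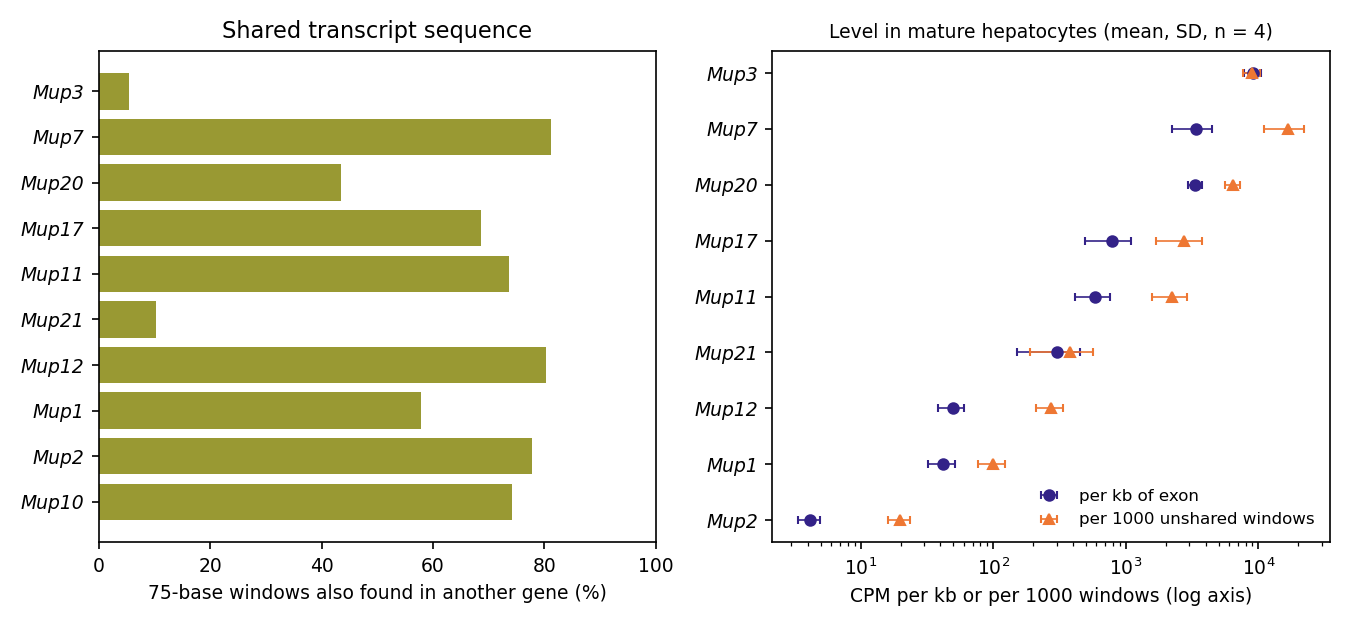
Left, bars give the percent of 75-base transcript windows of each of the 10 genes that also occur in another gene, from 5.44% in Mup3 to 81.1% in Mup7. Right, points give the level in mature hepatocytes on a log axis as mean and SD of 4 libraries, in CPM per kb of exon (circles) or per 1000 unshared windows (triangles), with Mup10, at 3 counts or fewer in every library, left out; Mup7 moves past Mup3 when only unshared windows are used.

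RefSeq promoters on GRCm38.p6, from 250 bases before to 50 bases after the annotated start, were at hand for 7 of the 10 genes. The motif TATATAA, a form of the TATA box that places the start of transcription, was found in 6 of them, the exception being the window of Mup7. Counted on either strand, it was found in 3.24% of all 32851 promoters. This form was chosen after the sequences were seen. The stretches below, all on the minus strand, are shown because they carry a nearly identical block around the motif, which is in capitals.
Mup3, chr4:62087314-62087388: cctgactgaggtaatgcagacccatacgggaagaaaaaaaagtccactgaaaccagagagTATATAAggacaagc
Mup21, chr4:62150835-62150909: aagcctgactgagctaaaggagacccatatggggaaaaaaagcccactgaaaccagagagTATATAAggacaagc
Mup17, chr4:61595843-61595917: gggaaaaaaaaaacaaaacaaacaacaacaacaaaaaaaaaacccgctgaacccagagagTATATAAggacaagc
Mup11, chr4:60662383-60662457: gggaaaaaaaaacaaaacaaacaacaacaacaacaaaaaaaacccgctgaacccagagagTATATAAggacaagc
Mup2, chr4:60139869-60139943: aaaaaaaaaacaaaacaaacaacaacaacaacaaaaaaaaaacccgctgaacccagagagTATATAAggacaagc
Mup10, chr4:60582171-60582245: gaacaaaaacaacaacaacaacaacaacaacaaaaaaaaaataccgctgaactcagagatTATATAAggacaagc
Counted from the RefSeq start as 0, the motif began at position -11 in Mup3, -8 in Mup21, -25 in Mup17, -2 in Mup11, -27 in Mup2 and -30 in Mup10. In Mup10 it overlapped a match on the opposite strand that began 1 base upstream. The RefSeq starts are thus not placed alike. In the gene positions listed above, which come from GENCODE, the motif lies within each of the 6 genes, so RefSeq and GENCODE differ here. Mup10, which had next to no counts in any group, carried the motif too. On both strands of the 7 windows no match was found to TTCNNNGAA, the motif of STAT5 (8.30% of all promoters), TTNNGCAA, a motif of C/EBP factors (10.8%), or the palindromic motif of the glucocorticoid receptor (0.475%). This says only that these letters are not in these windows.

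The counts on genes per library ranged from 21523329 to 25216977 for hepatoblasts, from 19581551 to 22026087 for Diff. hepatocytes and from 20043218 to 23791477 for mature hepatocytes. Levels are given as CPM, counts relative to a library size that was adjusted by the TMM method. Known markers of the cell types were read in each group. The summed level of 4 hepatoblast markers, with Dlk1 and Afp among them, was 40889 to 68571 CPM for hepatoblasts, 37391 to 43762 for Diff. hepatocytes and 64.9 to 107 for mature hepatocytes, while that of 6 hepatocyte markers was 32761 to 55418, 52642 to 60853 and 113155 to 158713 CPM. Markers of other cells were present in each group. Erythroid markers reached 375 to 3016 CPM in hepatoblasts, with replicate 1 highest, against 5.33 to 28.4 in Diff. hepatocytes and 132 to 181 in mature hepatocytes. Of the 4 hepatoblast markers 3 were called lower in Diff. hepatocytes than in hepatoblasts, but their sum stayed far above that of mature hepatocytes.

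The sum of the 10 Mup genes was high in mature hepatocytes and reached at most 246 counts in any library of the other groups. Together they took 278033, 338591, 305240 and 229209 counts in the 4 mature libraries, which is 1.34%, 1.69%, 1.34% and 0.963% of all counts on genes. In hepatoblasts they took 157, 191, 181 and 137 counts, and in Diff. hepatocytes 246, 235, 208 and 195. Their summed level was 5.29 ± 0.608 CPM (SD, n = 4 per group) for hepatoblasts, 9.90 ± 0.607 for Diff. hepatocytes and 18210 ± 3115 for mature hepatocytes. The 3 groups did not overlap. The sum was 3441-fold higher in mature hepatocytes than in hepatoblasts, a log2 fold change of 11.75 (SE 0.22, adjusted p = 3.22e-13, edgeR's quasi-likelihood test). With all 49 Mup genes in the sum the log2 fold change was 11.67.

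**Figure D2:**
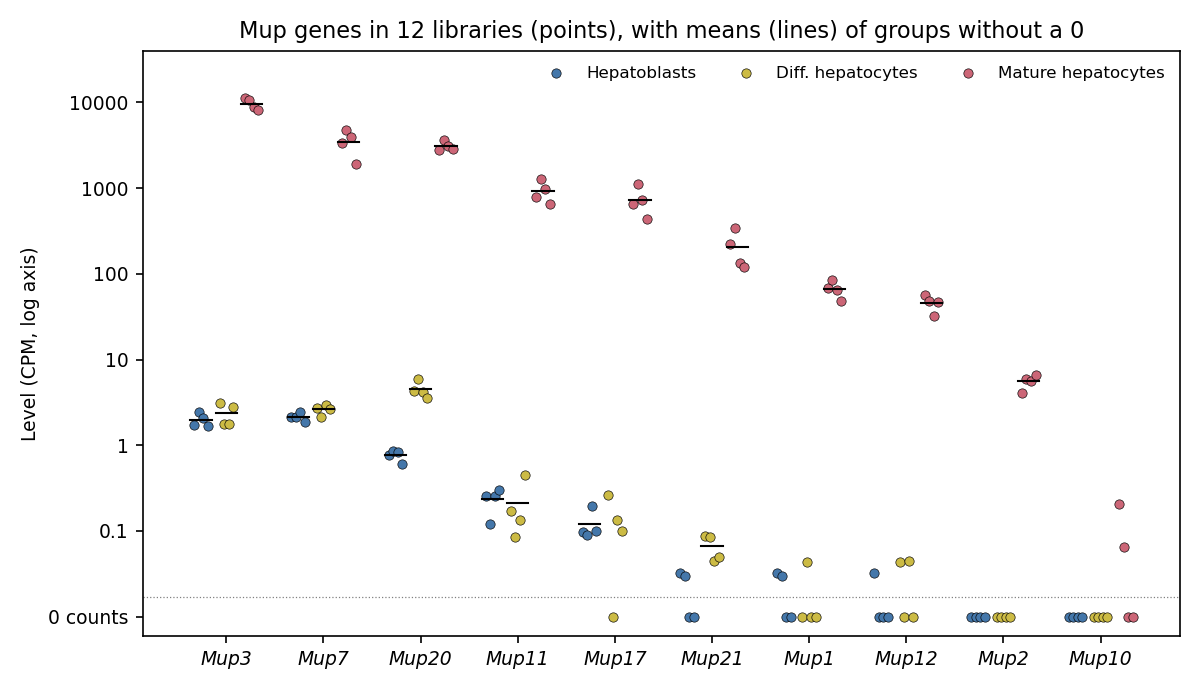
Level of each of the 10 Mup genes in CPM on a log axis, 1 point per library and 4 libraries per group, with the group mean as a line where no library was at 0 counts and a separate row for 0 counts. For every gene but Mup10 the mature libraries sit far above both other groups, and all Diff. hepatocytes lie above all hepatoblasts for Mup20. For Mup21 they do so only through the scaling, at 1 or 2 counts against 0 or 1.

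The question of the first comparison was which genes distinguish adult hepatocytes from their embryonic precursors. Mup3, a peripheral gene, had the most counts of the 10 in mature hepatocytes. It had 53, 81, 65 and 50 counts in hepatoblasts and 162693, 164010, 152009 and 130738 counts in mature hepatocytes, which is 1.71, 2.42, 2.105 and 1.66 CPM against 11156, 10526, 8871 and 8117 CPM. Every mature library was far above every hepatoblast library. The log2 fold change was 12.25 (SE 0.28, adjusted p = 1.66e-12). Mup7, of the close group, rose from 2.13, 2.15, 2.46 and 1.89 CPM to 3327, 4700, 3921 and 1931 CPM. The mature libraries differed among themselves by 2.43 times, replicate 2 being highest and replicate 4 lowest, without coming near the hepatoblasts. The log2 fold change was 10.65 (SE 0.32, adjusted p = 9.46e-12). Mup20, the gene of darcin, rose from 0.774, 0.866, 0.842 and 0.597 CPM to 2799, 3643, 3088 and 2863 CPM. It varied least among the mature libraries. Its log2 fold change was 11.96 (SE 0.23, adjusted p = 3.79e-13).

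The other genes of the close group followed at lower levels. Mup11 had 8, 4, 8 and 9 counts in hepatoblasts and 11354, 19868, 16719 and 10609 counts in mature hepatocytes, where its level was 779, 1275, 976 and 659 CPM. Mup17 had 3, 3, 6 and 3 counts against 9544, 17219, 12363 and 7086, the latter being 654, 1105, 722 and 440 CPM. Replicate 2 was again the highest and replicate 4 the lowest mature library for both genes. The log2 fold changes were 11.93 for Mup11 (SE 0.35, adjusted p = 9.01e-12) and 12.51 for Mup17 (SE 0.44, adjusted p = 3.78e-11). Both genes passed the filter on low counts only through the mature libraries and had to differ, so these p-values are no evidence beyond that.

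Mup21, Mup1, Mup12 and Mup2 had at most 1 count in any hepatoblast library, so their fold is given as a ratio of summed counts with an exact 95% interval, which covers counting error only, or as a bound. Mup21, the gene most like Mup3, had 1, 1, 0 and 0 counts in hepatoblasts and 3220, 5318, 2301 and 1939 in mature hepatocytes, which is 221, 341, 134 and 120 CPM there. The ratio was 12652 (interval 3502 to 104479). Mup1 had 1, 1, 0 and 0 counts in hepatoblasts and 68.6, 85.0, 64.7 and 47.6 CPM in mature hepatocytes, a ratio of 4159 (1151 to 34357). Mup12, whose coding sequence is 99.6% identical to that of Mup1, had 1 count in 1 hepatoblast library and 56.3, 48.5, 31.7 and 46.3 CPM in mature hepatocytes, a ratio of 5675 (1018 to 224238). Mup2 had 0 counts in all 4 hepatoblast libraries and 4.05, 5.97, 5.66 and 6.52 CPM in mature hepatocytes. It was at least 58.0-fold higher, with 3 counts per library taken as the floor. Mup10 had 3, 1, 0 and 0 counts in mature hepatocytes and 0 in the other 8 libraries, so it was not tested and no fold is given.

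A gene was called when its Benjamini-Hochberg adjusted p was under 0.01 and its absolute log2 fold change was over 1. Of the 10 genes 9 were tested, and 9 were called higher in mature hepatocytes than in hepatoblasts, where 20.1% of all 17779 tested genes were called higher and 24.7% lower. Of these 9, 6 passed the filter on low counts only through the mature libraries and had to differ, so the count is a description. Mup3, Mup7 and Mup20 passed it in another group as well. Among the mature libraries replicate 2 was the highest for 6 of the 9 genes and replicate 4 the lowest for 6. The ratio of highest to lowest mature library was 1.30 for Mup20 and 1.37 for Mup3, but 2.51 for Mup17 and 2.84 for Mup21. Markers of other cells moved in the same comparison. Of 10 erythroid markers 9 were called lower in mature hepatocytes, of 8 mesenchymal markers 6 lower and 1 higher, of 8 endothelial markers 4 higher, of 10 macrophage markers 2 in each direction and of 5 bile duct markers 1 in each direction. With library totals 1 endothelial marker was called higher and 1 lower, and 0 bile duct markers higher and 2 lower. The shares of all tested genes called with library totals are not given, here or below. The summed mesenchymal level was 50.5 to 72.0 CPM in mature hepatocytes, the endothelial level 142 to 252 and the macrophage level 112 to 219, and in hepatoblasts the latter pair stood at 45.3 to 155 and 69.1 to 273. Their part in the results was not tested.

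Diff. hepatocytes were compared with hepatoblasts to ask which hepatocyte genes had come up after culture. Of the Mup genes Mup20 did, and it remained far under the adult level. Mup20 had 24, 29, 26 and 18 counts in hepatoblasts and 98, 139, 93 and 73 counts in Diff. hepatocytes, which is 0.774, 0.866, 0.842 and 0.597 CPM against 4.24, 5.98, 4.13 and 3.60 CPM. Every Diff. library was above every hepatoblast library. The log2 fold change was 2.54 (SE 0.19, 95% interval 2.09 to 2.98, adjusted p = 1.61e-07), and it lay between 2.22 and 2.63 under all alternatives. An exact two-sided permutation test over the 70 assignments of the 8 libraries gave p = 0.0286, the smallest this design allows. It was the 1 of the 9 tested Mup genes that was called, where 14.9% of all tested genes were called higher and 14% lower.

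Mup3 and Mup7 were not called. Mup3 had 72, 41, 40 and 56 counts in Diff. hepatocytes, which is 3.11, 1.76, 1.78 and 2.76 CPM and overlapped the hepatoblasts. Its log2 fold change was 0.25 (SE 0.22, 95% interval -0.25 to 0.75, adjusted p = 0.353). Mup7 had 63, 50, 67 and 54 counts, or 2.72, 2.15, 2.98 and 2.66 CPM, and also overlapped them. Its log2 fold change was 0.28 (SE 0.26, 95% interval -0.31 to 0.88, adjusted p = 0.370). With library totals in place of TMM these values became -0.070 for Mup3 and -0.039 for Mup7, so their sign is set by the scaling. Both intervals leave out a rise as large as that of Mup20.

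The remaining genes were at or near the floor in both groups. Mup11 had 4, 2, 3 and 9 counts in Diff. hepatocytes (log2 fold change -0.19, SE 0.57, adjusted p = 0.795) and Mup17 6, 0, 3 and 2 counts (0.04, SE 0.85, adjusted p = 0.970). Mup21 had 2, 2, 1 and 1 counts, Mup1 0, 1, 0 and 0, Mup12 1, 0, 1 and 0, and Mup2 and Mup10 had 0. Differences in these 7 genes were not detectable at this depth. The sum of the 10 genes was 1.87-fold higher in Diff. hepatocytes, a log2 fold change of 0.90 (SE 0.15, 95% interval 0.55 to 1.25, adjusted p = 0.000221), under the fold threshold of 2.

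Markers of other cells also moved between these groups. In Diff. hepatocytes 10 of 10 erythroid and 6 of 8 endothelial markers were called lower, and 3 of 8 mesenchymal and 3 of 5 bile duct markers were called higher. With library totals 1 mesenchymal marker was called higher and 1 lower. The embryonic globin Hbb-y was at 0 counts in all 4 Diff. libraries. The summed mesenchymal level ran from 660 to 1283 CPM before culture and from 1163 to 2905 CPM after it, and the summed bile duct level was 12.9 to 15.1 and 69.95 to 213 CPM. Their part in the result for Mup20 was not tested. Without hepatoblasts replicate 1, the library with the highest erythroid level, the log2 fold change of Mup20 was 2.55.

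Against mature hepatocytes the Mup genes of Diff. hepatocytes were close to the hepatoblast level and far under the mature level. This comparison shares its libraries with those above. The sum of the 10 genes was 1839-fold lower in Diff. hepatocytes (log2 fold change -10.84, SE 0.21). Mup3 was lower by a log2 fold change of -12.00 (SE 0.28, adjusted p = 2.83e-12), Mup7 by -10.36 (SE 0.32, adjusted p = 2.21e-11) and Mup20 by -9.43 (SE 0.21, adjusted p = 1.84e-12). Mup11 and Mup17 were lower by -12.11 (SE 0.37) and -12.47 (SE 0.45). Mup21, Mup1 and Mup12 were 2994-fold (1375 to 8161), 5907-fold (1060 to 233360) and 2015-fold (557 to 16645) lower by their counts, and Mup2 at least 41.1-fold lower. No Diff. library overlapped a mature library for any of these 9 genes. The 9 tested genes were called lower, where 15.6% of all tested genes were called lower and 20.2% higher. Of these 9, 6 passed the filter on low counts only through the mature libraries and had to differ. Both the calls and the lack of overlap are therefore a description. The share of all tested genes without overlap is not given here.

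The make-up of the Mup signal was compared between the groups. Each gene was expressed as its percent of the counts of the 10 genes in a library. In hepatoblasts Mup7 held 40.83 ± 2.0996%, Mup3 37.1 ± 3.70% and Mup20 14.49 ± 0.993% (SD, n = 4). In Diff. hepatocytes Mup20 was the leading gene with 45.3 ± 9.73%, ahead of Mup7 with 26.7 ± 4.54% and Mup3 with 23.7 ± 6.20%. In mature hepatocytes Mup3 led with 53.4 ± 5.07%, followed by Mup7 with 18.7 ± 3.98% and Mup20 with 17.2 ± 2.24%. The share of Mup20 was 37.4% to 59.1% in the Diff. libraries, 13.1% to 15.3% in the hepatoblast libraries and 14.7% to 20.1% in the mature libraries, so the Diff. libraries overlapped neither. Of 30 comparisons of shares (10 genes in 3 comparisons), 11 had groups that did not overlap. These reached the smallest exact two-sided permutation p this design allows, 0.0286. After adjustment over the 30 the smallest adjusted p was 0.0779, and 0 were under 0.05. With 0.0286 as the floor, more than 11 comparisons had to reach it for any to pass, so the adjustment cannot decide. For Mup2 the lack of overlap rests on 0 counts. Its mature share of 0.0212% to 0.0458% lies inside the 95% intervals of the libraries at 0, whose lowest upper limit is 1.49%. The shares of 1 library sum to 100% and are not independent of each other.

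**Figure D3:**
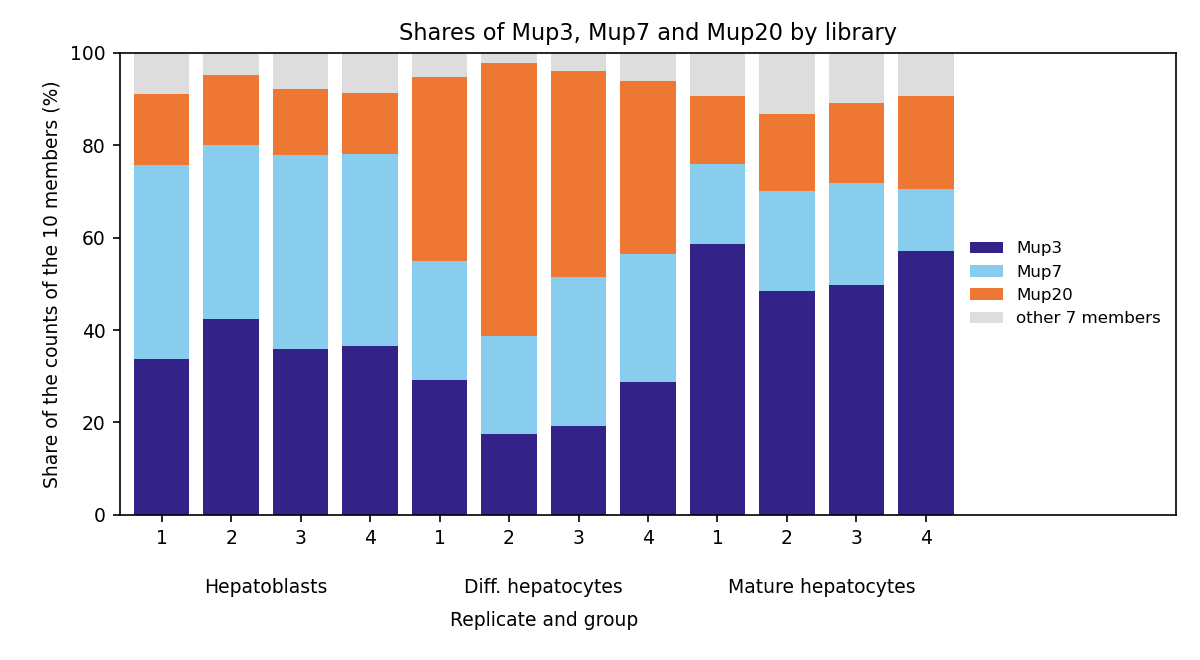
Stacked bars give the percent of the summed counts of the 10 Mup genes held by Mup3, Mup7, Mup20 and the other 7 genes together, 1 bar for each of the 12 libraries. Mup20 takes 37.4% to 59.1% in Diff. hepatocytes and no more than 20.1% elsewhere, and Mup3 takes the largest part in every mature library. The shares are of counts, with no weight for sequence shared between genes.

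Levels of different genes were compared per kb of exon. In mature hepatocytes Mup3 came first with 9052 ± 1323 CPM per kb (SD, n = 4), above the next gene in all 4 libraries. Mup7 with 3359 ± 1133 and Mup20 with 3339 ± 413 CPM per kb overlapped each other. Mup17 (788 ± 299), Mup11 (585 ± 171) and Mup21 (302 ± 150) each overlapped the next, although Mup17 was above Mup11 and Mup11 above Mup21 in all 4 libraries. Mup12 (49.4 ± 11.1) and Mup1 (42.0 ± 9.70) overlapped, and Mup2 (4.15 ± 0.796) stood below both. The order of the first genes depends on shared sequence: per 1000 unshared windows Mup7 led with 16601 ± 5598 CPM, ahead of Mup3 with 8968 and Mup20 with 6428. In hepatoblasts Mup7 (2.09 ± 0.227 CPM per kb of exon) and Mup3 (1.85 ± 0.335) overlapped and Mup20 (0.8293 ± 0.131) lay below them. In Diff. hepatocytes Mup20 (4.84 ± 1.12) came first and did not overlap Mup7 (2.54 ± 0.334), which overlapped Mup3 (2.20 ± 0.645). Per 1000 unshared windows Mup7 had the higher mean there, 12.6 ± 1.65 CPM against 9.31 ± 2.15 for Mup20.

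Of the other 39 Mup genes, 16 were tested. All 16 were called higher in mature hepatocytes than in hepatoblasts (20.1% of all tested genes) and lower in Diff. than in mature hepatocytes (15.6%), but 15 of them passed the filter on low counts only through the mature libraries and had to differ. The most abundant was Mup14, with 422.6, 730.4, 525.4 and 329.0 CPM in mature hepatocytes and 19, 13, 11 and 15 counts in hepatoblasts (log2 fold change 10.07, SE 0.36). Mup16 had a mature level of 107 to 174 CPM and 1 to 3 counts in each hepatoblast library, a ratio of 2363 (1146 to 5879). Mup18 was at 0 counts in hepatoblasts and at least 395-fold higher in mature hepatocytes, and Mup9 at least 196-fold. Mup4, a peripheral gene, was the lowest called, with 28 counts over the 4 mature libraries. Mup6 was the only one called between Diff. hepatocytes and hepatoblasts, on 2, 0, 3 and 3 counts against 0 (adjusted p = 0.00568), which is too few for a fold. Mup15, Mup19 and Mup22 share 100% of their windows with other genes.

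The low counts in the embryonic groups were set against the mature level. In hepatoblasts Mup3 stood at 0.0204% of its mature level, Mup20 at 0.0248% and Mup7 at 0.0622%. In Diff. hepatocytes the values were 0.0243% for Mup3, 0.0758% for Mup7 and 0.145% for Mup20. Of the 159 genes with at least 1000 CPM in mature hepatocytes, 14 were under 0.1% of their mature level in hepatoblasts, 11 of them outside the Mup family, and 12 were so in Diff. hepatocytes, 10 of them outside it. The medians of the 159 genes were 12.0% and 34.9%. The lowest values were 0.0177% for Cyp2c29 in hepatoblasts and 0.0211% for Car3 in Diff. hepatocytes, so Mup3 lay at the lower end of the range in both groups. All libraries were pooled and read on shared lanes, and what part of the lowest values came from reads assigned to the wrong library was not tested.

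**Figure D4:**
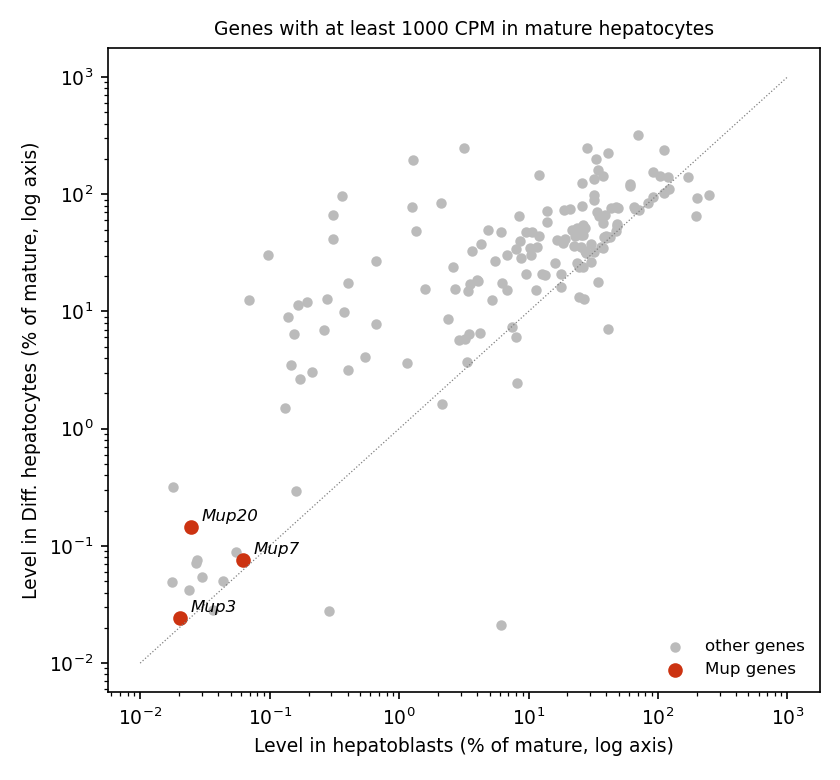
Level in hepatoblasts and in Diff. hepatocytes as a percent of the level in mature hepatocytes (log axes) for the 159 genes with at least 1000 CPM in mature hepatocytes, the Mup genes among them marked and a dotted line where both percents are equal. Mup3, Mup7 and Mup20 lie near the lower end in hepatoblasts, and Mup20 is higher in Diff. hepatocytes than the other 2.

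Genes of growth hormone signalling, the main known input to male-biased liver genes, were read in the same libraries. The shares over all tested genes printed next are those with TMM, and those with library totals are not given. For this and the following lists, the shares over all tested genes are 20.1% higher and 24.7% lower in mature hepatocytes against hepatoblasts, 14.9% and 14% in Diff. hepatocytes against hepatoblasts, and 20.2% and 15.6% in Diff. against mature hepatocytes. Of 12 genes, 6 were called higher and 2 lower in mature hepatocytes than in hepatoblasts (median log2 fold change 1.74, against -0.15 over all tested genes), and 6 higher and 4 lower with library totals. In Diff. hepatocytes against hepatoblasts 1 was called higher and 8 lower (median -1.35, against -0.01), and against mature hepatocytes 1 higher and 7 lower (median -2.73, against 0.09). Ghr, the growth hormone receptor, stood, in the order hepatoblasts, Diff. hepatocytes, mature hepatocytes, at 73.8 ± 14.4, 68.3 ± 1.30 and 724 ± 61.9 CPM (SD, n = 4), the order kept from here on, and rose by a log2 fold change of 3.29 between the first and the last (SE 0.14, adjusted p = 2.17e-10). Igf1, the hormone that growth hormone induces in liver, was at 7.70 ± 3.24, 2.64 ± 1.46 and 897 ± 38.9 CPM. Stat5a and Stat5b, which carry the signal to the nucleus, fell in Diff. hepatocytes against hepatoblasts by 1.16 and 1.03 on the log2 scale (adjusted p = 2.26e-06 and 3.42e-05), and their differences between mature hepatocytes and hepatoblasts were -0.23 and -0.09. With library totals that of Stat5a was -1.09 and was called lower.

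The feedback inhibitors of the pathway were low in culture. Socs2, a target of STAT5, was at 2.41 ± 0.363, 0.814 ± 0.401 and 27.3 ± 7.71 CPM, and was called in all 3 comparisons. Cish, another, was at 16.3 ± 3.36, 1.51 ± 0.354 and 33.8 ± 19.8 CPM, lower in Diff. hepatocytes than in either other group. Socs3, which also answers to cytokines, was at 275 ± 62.6, 8.82 ± 2.40 and 111 ± 52.5 CPM. Bcl6, a repressor that competes with STAT5, stood at 4.04 ± 0.454, 27.5 ± 3.41 and 44.6 ± 22.2 CPM, the first step being a log2 fold change of 2.77 (adjusted p = 4.06e-06). Cux2, a factor of the adult female liver, fell from 18.2 ± 5.58 to 1.62 ± 0.334 and 0.560 ± 0.230 CPM.

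Among 13 hormone receptors and hepatocyte factors, 8 were called higher and 0 lower in mature hepatocytes than in hepatoblasts (median 1.41), 1 higher and 0 lower in Diff. hepatocytes than in hepatoblasts (median 0.14), and 0 higher and 8 lower in Diff. than in mature hepatocytes (median -1.34). With library totals the first count was 5 higher and 1 lower. Zhx2, a factor known to act on Mup expression, was at 5.42 ± 1.15, 10.6 ± 0.735 and 34.6 ± 3.36 CPM and rose by 2.67 between hepatoblasts and mature hepatocytes (adjusted p = 2.1e-09). Nr3c1, the glucocorticoid receptor, was at 57.4 ± 3.40, 63.2 ± 4.35 and 126 ± 8.02 CPM, and Thrb, a thyroid hormone receptor, at 19.8 ± 3.70, 22.6 ± 3.64 and 68.6 ± 11.3 CPM. Their log2 fold changes from hepatoblasts to mature hepatocytes, 1.13 and 1.79, were called with TMM and were 0.28 and 0.95, not called, with library totals. Cebpb, a C/EBP factor, was the 1 gene called between Diff. hepatocytes and hepatoblasts (1.34, adjusted p = 2.83e-07). Foxa1 was lower in Diff. than in mature hepatocytes by -1.27, a call that was lost with library totals.

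Other genes known to be higher in male than in female liver were also higher in mature hepatocytes than in both other groups. Of 14 genes, 14 were called higher in mature hepatocytes than in hepatoblasts (median 9.60) and 14 lower in Diff. than in mature hepatocytes (median -8.89), but 3 of the 14 passed the filter on low counts only through the mature libraries and had to differ. Between Diff. hepatocytes and hepatoblasts 3 were called higher and 2 lower (median 0.31). Slco1a1, an organic anion carrier, rose from 0.193 ± 0.0832 to 4.49 ± 1.40 CPM in culture (log2 fold change 4.52, adjusted p = 3.72e-08) and stood at 660 ± 64.4 CPM in mature hepatocytes. Gstp1, a glutathione transferase, was at 100.3 ± 15.6, 218 ± 49.4 and 1045 ± 136 CPM, the middle value being called higher than the first with TMM (1.12) but not with library totals (0.81). C6, a complement component, fell from 0.722 ± 0.441 to 0.0885 ± 0.0329 CPM in culture and was at 489 ± 120 CPM in mature hepatocytes. Elovl3 and Ugt2b38 had 6 counts or fewer over each embryonic group, and 362 ± 299 and 43.2 ± 31.0 CPM in mature hepatocytes.

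Female-biased liver genes were called in both directions. Of 15 listed genes 10 were tested. In mature hepatocytes 2 were called higher and 4 lower than in hepatoblasts (median -0.61), in Diff. hepatocytes 4 higher and 2 lower than in hepatoblasts (median 0.85), and 7 higher and 2 lower than in mature hepatocytes (median 3.53). Sult2a1, a sulfotransferase, was at 0.826 ± 0.651, 56.7 ± 11.2 and 0.108 ± 0.138 CPM, and Cyp3a44, a cytochrome P450, at 0.0618 ± 0.0640, 16.4 ± 9.20 and 0.125 ± 0.0460. Both were called higher in Diff. hepatocytes than in either other group (log2 fold changes of 6.11 and 7.89 against hepatoblasts). Acot3 and Hao2 were called lower in Diff. hepatocytes than in hepatoblasts, by -4.97 and -1.93. Fmo2 was highest in mature hepatocytes, at 4.44 ± 2.55 CPM.

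Glucocorticoid-responsive genes were read because dexamethasone was in the medium. Of 11 genes, 7 were called higher and 3 lower in Diff. hepatocytes than in hepatoblasts (median 1.64), 6 higher and 2 lower in mature hepatocytes than in hepatoblasts (median 1.60), and 5 higher and 4 lower in Diff. than in mature hepatocytes (median 0.04). Tat, tyrosine aminotransferase, rose from 2.33 ± 0.261 to 725 ± 145 CPM in culture (log2 fold change 8.28, adjusted p = 2.13e-11) and was at 2412 ± 254 CPM in mature hepatocytes. G6pc and Pck1, enzymes of glucose synthesis, were at 157 ± 26.5 and 436 ± 98.6 CPM in Diff. hepatocytes, above hepatoblasts by 7.50 and 4.71 and below mature hepatocytes by -2.99 and -3.35. Mt2, a metallothionein, went the other way, from 277 ± 29.4 CPM in hepatoblasts to 28.4 ± 11.5 and 4.55 ± 4.13. Mup20 was called higher in culture, as 7 of these genes were while 3 were called lower, and reached 0.145% of its mature level. A part of dexamethasone in the change of Mup20 was not tested.

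Of 12 other lipocalins, 10 were tested, 3 of which passed the filter only through the mature libraries. In mature hepatocytes 6 were called higher and 1 lower than in hepatoblasts (median 4.50), in Diff. hepatocytes 3 higher and 2 lower than in hepatoblasts (median 1.23), and 1 higher and 6 lower than in mature hepatocytes (median -2.38). Orm1, an acute-phase plasma carrier, rose from 0.355 ± 0.113 to 183 ± 65.3 CPM in culture and to 719 ± 228 CPM in mature hepatocytes. Lcn2, which binds bacterial iron carriers, was at 829 ± 423 CPM in Diff. hepatocytes against 17.8 ± 4.82 in hepatoblasts and 7.86 ± 7.49 in mature hepatocytes. C8g, of the complement system, was lowest in Diff. hepatocytes (12.9 ± 3.18 CPM, against 36.8 ± 8.67 and 461 ± 38.6), and Apom was highest in hepatoblasts (677 ± 135 CPM). Obp2a, an odorant-binding protein, was at 0 counts in both embryonic groups and 2.85 ± 2.37 CPM in mature hepatocytes.

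The genes that flank the cluster were called in both directions, in shares near those of all tested genes in mature hepatocytes against hepatoblasts. Of 30 neighbours within 1 Mb, 25 were tested. In mature hepatocytes 4 were called higher and 7 lower than in hepatoblasts (median -0.38), in Diff. hepatocytes 2 higher and 5 lower than in hepatoblasts (median -0.33), and 3 higher and 4 lower than in mature hepatocytes (median 0.10). With library totals these counts became 1 higher and 16 lower, 1 higher and 9 lower, and 8 higher and 3 lower. That scaling moved the median of all genes by -0.85, -0.32 and 0.53 on the log2 scale. The shares over all tested genes under it are not given, so these counts cannot be read against them. Alad, an enzyme of heme synthesis, was at 68.8 ± 38.9, 16.4 ± 2.08 and 179 ± 26.1 CPM, and Hdhd3 at 6.57 ± 1.7998, 4.22 ± 0.589 and 28.1 ± 4.34 CPM. Zfp618, a zinc finger gene, ran the other way, at 46.2 ± 9.75, 66.3 ± 11.6 and 1.45 ± 0.712 CPM. Zkscan16 was at 0.702 ± 0.226 CPM in hepatoblasts and 0 counts in Diff. hepatocytes, and Bspry was called higher in Diff. hepatocytes than in hepatoblasts, at 1.15 ± 0.340 against 0.224 ± 0.0568 CPM.

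**Figure D5:**
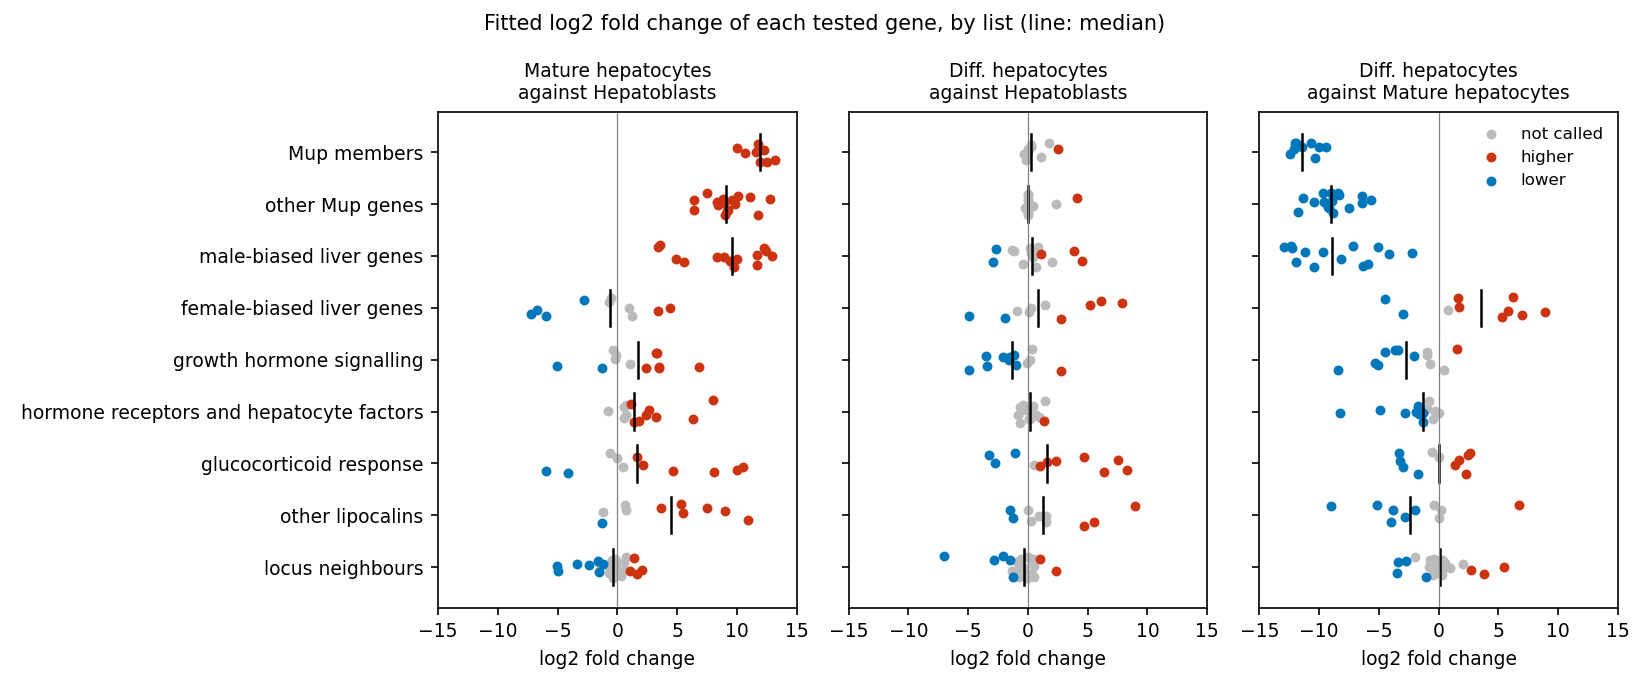
Fitted log2 fold change of each tested gene in the 3 comparisons, 1 point per gene, grouped by list, with the median of each list as a line and calls in colour. The Mup and male-biased genes lie far to the right in the first panel and far to the left in the third, while the flanking genes centre near 0; values of genes at 0 counts in a group depend on the prior count of 2 and are no measure of size.

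Outside the family, the 5 genes whose log2 CPM was most like that of the summed Mup genes over the 12 libraries were Mug1 (Pearson r 0.9988), Nat8f2 (0.9987), Serpina3k (0.9984), Bst2 (0.9981) and Ido2 (0.9976), of 8686 genes with a mean of at least 10 CPM. The libraries fall into the 3 groups, so these values chiefly record the step between embryonic and adult cells, and 71 genes had an r over 0.99. Mug1, a plasma protease inhibitor, stood at mean levels of 1.39, 2.51 and 4630 CPM, and Serpina3k, another, at 3.65, 9.55 and 13432 CPM.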

How the data were processed

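RNA of 12 libraries was read as 75-bp single reads. The authors mapped the reads to GRCm38 with STAR 2.5.2b, after FastQC 0.11.2, and deposited unnormalized counts, 1 whole number per gene and library. The strand setting, the handling of reads with several matches and the removal of duplicates are not given in the sources used here. No column of another series was present. Libraries were grouped by their titles, and replicates are the study's biological replicates.

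The Mup genes and all gene lists were chosen with earlier results of these data known. Genes named in the text were the Mup genes, in each list the called genes with the largest and smallest log2 fold change, a set of receptors and factors, and the 5 genes most like the Mup sum. A gene that this rule names is not reported here. Of 53715 identifiers 53620 were found in GENCODE M21, from which positions, exon lengths and transcripts were taken; promoters came from RefSeq.

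The main tool was edgeR 4.0.16, run in R 4.3.3 beside DESeq2 1.42.0 and limma 3.58.1. A gene entered the fit if some library held over 10 counts of it. Libraries were scaled by TMM and tested over the 12 libraries with the quasi-likelihood test (group as the only term, Benjamini-Hochberg adjusted p under 0.01, absolute log2 fold change over 1). The thresholds and the filter follow the study, which used DESeq2 1.22.2. Log2 CPM used a prior count of 2. Replicates of a group differed beyond counting error (chi-square per gene 5.97 to 89.7), so none was a repeat of another. A library at 0 counts allows up to 3. On simulated data for mature hepatocytes against hepatoblasts, with 16783 genes tested, 187 of 200 changed genes and 4 unchanged genes were called. The changed genes were a small part of all and changed far less than the Mup genes did. The simulation therefore does not test the scaling between these groups or genes near 0 counts. Alternatives were DESeq2, glmTreat, other scalings and filters, fits of the 8 libraries compared, a replicate block, fits without each library, other share weights and 50-base windows.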

Additional observations from a re-analysis of the deposited data

Results flagged for a closer look

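In 29 groups of 4 libraries the gap of the highest or lowest library to the next was set against the range, and 3 groups had a library apart, where chance gives 1.45. Mup1 stood at 0.0430 CPM in Diff. hepatocytes replicate 2, with 0 counts in the other 3 libraries of the group. Mup12 stood at 0.0322 CPM in hepatoblasts replicate 1, with 0 counts in the other 3. Mup17 stood at 0.194 CPM in hepatoblasts replicate 3, on 6 counts against 3 in each of the others. The first 2 of these values are 1 count each, and 1 count against 0 in the rest always sets a library apart. The chance value of 1.45 is for continuous values and does not apply to counts this low.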

How the results depend on the processing

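The calls of the Mup genes (9 of 9, 1 of 9 and 9 of 9 tested) and of their sums were the same under all alternatives run, and the log2 fold change of the sum of 10 lay between 10.90 and 11.84, 0.58 and 0.95, and -10.95 and -10.32 in the 3 comparisons. Library totals in place of TMM shifted the median of all genes by -0.85, -0.32 and 0.53 on the log2 scale. They reversed 3 uncalled differences between Diff. hepatocytes and hepatoblasts, Mup3 to -0.070, Mup7 to -0.039 and Mup17 to -0.26. Leaving out 1 library reversed Mup17 (between -0.62 and 0.45) and Mup11 (between -0.80 and 0.058) in the same comparison. The replicate numbers were not taken to pair the libraries, since no comparison had all 4 same-number correlations of deviations over 0.1. In Diff. hepatocytes against hepatoblasts they were 0.32, -0.059, 0.25 and 0.18, and 3 of 4 libraries correlated best with their own number, a hint from the data. In the other comparisons they lay between -0.081 and 0.092. With the replicate block, 7988, 5220 and 6359 genes were called against 7971, 5145 and 6362. Of the counts of the lists, 11 moved by over 1.5 times with library totals and 1 with DESeq2. Leaving out 1 library moved 12. The flanking genes called higher in Diff. hepatocytes against hepatoblasts went from 2 to 1 without hepatoblasts replicate 1 or 2, Diff. replicate 2 or 4 or any mature library. The receptors and factors called there went from 1 to 2 without hepatoblasts replicate 3 or Diff. replicate 1. Lipocalins called lower in mature hepatocytes than in hepatoblasts went from 1 to 2 without mature replicate 2, and flanking genes called higher in Diff. than in mature hepatocytes from 3 to 5 without mature replicate 3. Unshared windows as weights moved 12 differences of shares by more than their spread, and leaving out 1 library moved 24. With 50-base windows, shared sequence rose to 13.3% in Mup3, 50.5% in Mup20 and 86.7% in Mup7. Depth limits the embryonic values of the close group to a few counts, and reads that match several genes limit them in all groups.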
